A study of Mus musculus with 12 samples.

Results

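A set of 9 genes of cystine import, transsulfuration, glutathione synthesis, glutathione recycling and glutathione breakdown was followed through 12 mouse lung cancer libraries. They were chosen by name from knowledge of the pathway, with earlier results of these data known. The set was Slc7a11 and Slc3a2 (import), Cbs and Cth (transsulfuration), Gclc, Gclm and Gss (synthesis), Gsr (recycling) and Chac1 (breakdown). These were 9 of the 19212 genes in the deposited table, and all 9 passed the filter on low counts in every comparison. LLC cells (Lewis lung carcinoma, a mouse line that forms tumours when transplanted) were grown in culture and then used to make lung tumours in mice. In a first experiment the LLC cells carried a negative control lentivirus (group NC, genotype WT) or a lentivirus that knocks down Otub1 (group OTUB1_KD). In the other, mice bearing WT tumours received physiological saline (group Blank) or SFD@M (group SFD@M), an agent that the labels name without describing it. Each group had 3 libraries. Mouse strain, age, tumour stage, dose, the hairpin sequence and whether the knockdown line was a single clone are not stated in the labels. Nor do they say whether a group's libraries are from different mice, so every p-value reflects only the variation among the samples at hand, possibly technical variation.

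Cystine, the oxidised form of cysteine, enters cells through system xc-, in which SLC7A11 is the transport subunit and SLC3A2 the heavy chain that brings it to the membrane. Cysteine can also be made from methionine through transsulfuration, by cystathionine beta-synthase (Cbs) and then cystathionine gamma-lyase (Cth). Glutamate-cysteine ligase (catalytic subunit Gclc, modifier subunit Gclm) joins cysteine to glutamate, glutathione synthetase (Gss) adds glycine, glutathione reductase (Gsr) returns oxidised glutathione to its reduced form, and CHAC1 breaks glutathione down. Glutathione is the electron donor with which GPX4 removes lipid peroxides, and its loss is a known route to ferroptosis. OTUB1, a deubiquitinase, is known to bind and stabilise the SLC7A11 protein, an effect that messenger RNA does not measure.

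Otub1 was read first as a check of the labels. It was at 79.3, 76.6 and 72.8 TMM-scaled CPM (a read share per library, normalised across libraries, used for every level below unless TPM or library totals are named) in the NC libraries and at 57.7, 46.3 and 71.7 in the OTUB1_KD libraries. The groups did not overlap, but the difference did not pass the test (log2 fold change -0.36 ± 0.18 SE, adjusted p = 0.112; every adjusted p is Benjamini-Hochberg over all genes tested in edgeR's quasi-likelihood test). Otub1 was lower in SFD@M (46.1 ± 1.12, SD, n = 3) than in Blank (75.2 ± 2.34), with log2 fold change -0.71 ± 0.05 and adjusted p = 5.8e-06.

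The libraries differed widely in the cells they held. Totals were 16062806 to 18028828 counts per library. Summed over 12 alveolar markers, led by Sftpc, the level was 20.2 to 24.2 CPM of library totals in NC and 12.9 to 13.4 in Blank, against 12128 to 29159 in OTUB1_KD and 26888 to 29329 in SFD@M. The 16 leukocyte markers, led by Ptprc, summed to 4.79 to 5.51 in NC, 2.09 to 2.9 in Blank, 1240 to 1357 in OTUB1_KD and 1506 to 2211 in SFD@M, and 5 of them (Cd3e, Cd3d, Adgre1, S100a9 and Tyrobp) had no count in any NC or Blank library. Airway markers, led by Scgb1a1, summed to 3.83 to 5.1 in NC and Blank and to 13243 to 39763 in the other groups, and endothelial markers, led by Pecam1, to 42.7 to 67.2 against 1409 to 5744. Fibroblast markers, led by Col1a2, varied less as a sum, from 2186 to 2821 against 3270 to 5803. Col1a2 itself went from 3.84 to 13.4 in NC and Blank to 262 to 1295 in the other groups. Of the 8 fibroblast genes, 6 passed as higher and 1 as lower in OTUB1_KD against NC. In SFD@M against Blank 6 passed as higher and 2 as lower. All 12 libraries carry the tissue label lung cancer, yet lung and leukocyte markers were close to absent in 6 of them. The cell division list, led by Mki67, summed to 3452 to 4039 in NC and Blank, to 1337, 340 and 634 in OTUB1_KD replicates 1, 2 and 3, and to 122 to 213 in SFD@M. The 4 Y-linked genes, led by Ddx3y, stood at 36.9%, 0.184% and 7.08% of the NC mean in those OTUB1_KD replicates, at 0.0511% to 0.476% in SFD@M and at 107% to 109% in Blank. The part these markers play in the results below was not tested. In bulk libraries fewer cells of a type and less RNA per cell cannot be told apart.

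Slc7a11 was the member with the lowest level in SFD@M relative to Blank. It measured 151, 156 and 142 CPM in the Blank libraries and 18.1, 26.7 and 26.9 in the SFD@M libraries. Every SFD@M library was far below every Blank library, a 6.3-fold difference (log2 fold change -2.65 ± 0.15, adjusted p = 1.2e-06). In the knockdown experiment the NC libraries held 99.4, 105 and 107 CPM and the OTUB1_KD libraries 81.5, 31.2 and 113. OTUB1_KD replicate 3 was above every NC library, replicate 1 was below them and replicate 2 was lowest by a wide margin, so the groups overlapped. That change did not pass the test (-0.45 ± 0.41, adjusted p = 0.359).

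The stretch of 250 bases before the Slc7a11 start is shown because it holds the letters of a CARE, the composite site through which ATF4, the transcription factor of the amino acid response, is known to act, and because the level of Atf4 itself differed between the groups, as given further on. Such a difference is common here, since 88.1% of all genes passed in SFD@M against Blank. Whether ATF4 acts on Slc7a11 in these samples was not tested. The sequence is RefSeq's, on build GRCm38.p6, chr3:50443614-50443863, minus strand, with the matches in capitals.
Slc7a11: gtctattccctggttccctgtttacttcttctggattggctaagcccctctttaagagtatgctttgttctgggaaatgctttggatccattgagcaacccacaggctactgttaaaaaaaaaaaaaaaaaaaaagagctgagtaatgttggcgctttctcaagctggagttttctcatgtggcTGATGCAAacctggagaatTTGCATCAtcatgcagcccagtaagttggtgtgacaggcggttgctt
The pattern searched was TGATGNAA on both strands. It matched at bases 66 to 59 before the start on the gene's strand and, facing it, at bases 47 to 40 on the other strand. Among the 32851 promoters that RefSeq lists here, 3.45% held at least 1 match in the same window. The core of the antioxidant response element, TGACNNNGC, which NRF2 binds, was searched as well and had no match in the Slc7a11 window. The table held 6 of the 9 members, and Gclc, Gsr and Cth were not among them.

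Slc3a2, which serves several amino acid transporters beside SLC7A11, moved little. Its NC libraries were at 147, 161 and 159 CPM and its OTUB1_KD libraries at 155, 160 and 191, with overlap (0.13 ± 0.15, adjusted p = 0.464). Blank libraries were at 210, 211 and 216 and SFD@M libraries at 202, 184 and 178. Although the groups did not overlap, the difference was 1.14-fold (-0.18 ± 0.06, adjusted p = 0.0198) and the call was lost in 8 of 14 alternatives. Among those were the fits without Blank replicates 1, 2 or 3 (adjusted p = 0.051, 0.0544 and 0.0634) and without SFD@M replicate 2 (0.0539).

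The balance of the importer's subunits was taken next. TPM, which corrects for transcript length, was used for ratios between genes. The Slc7a11 to Slc3a2 ratio of TPM was 0.185, 0.173 and 0.181 in NC, 0.129, 0.0435 and 0.142 in OTUB1_KD, 0.195, 0.201 and 0.177 in Blank, and 0.0211, 0.0359 and 0.0375 in SFD@M. All OTUB1_KD values were under all NC values (ratio of means 0.583), and all SFD@M values were under all Blank values (ratio of means 0.165). A two-sided exact permutation test gave p = 0.1 for each, the smallest that 3 against 3 libraries allow. This ratio was added after the levels had been seen.

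**Figure D1:**
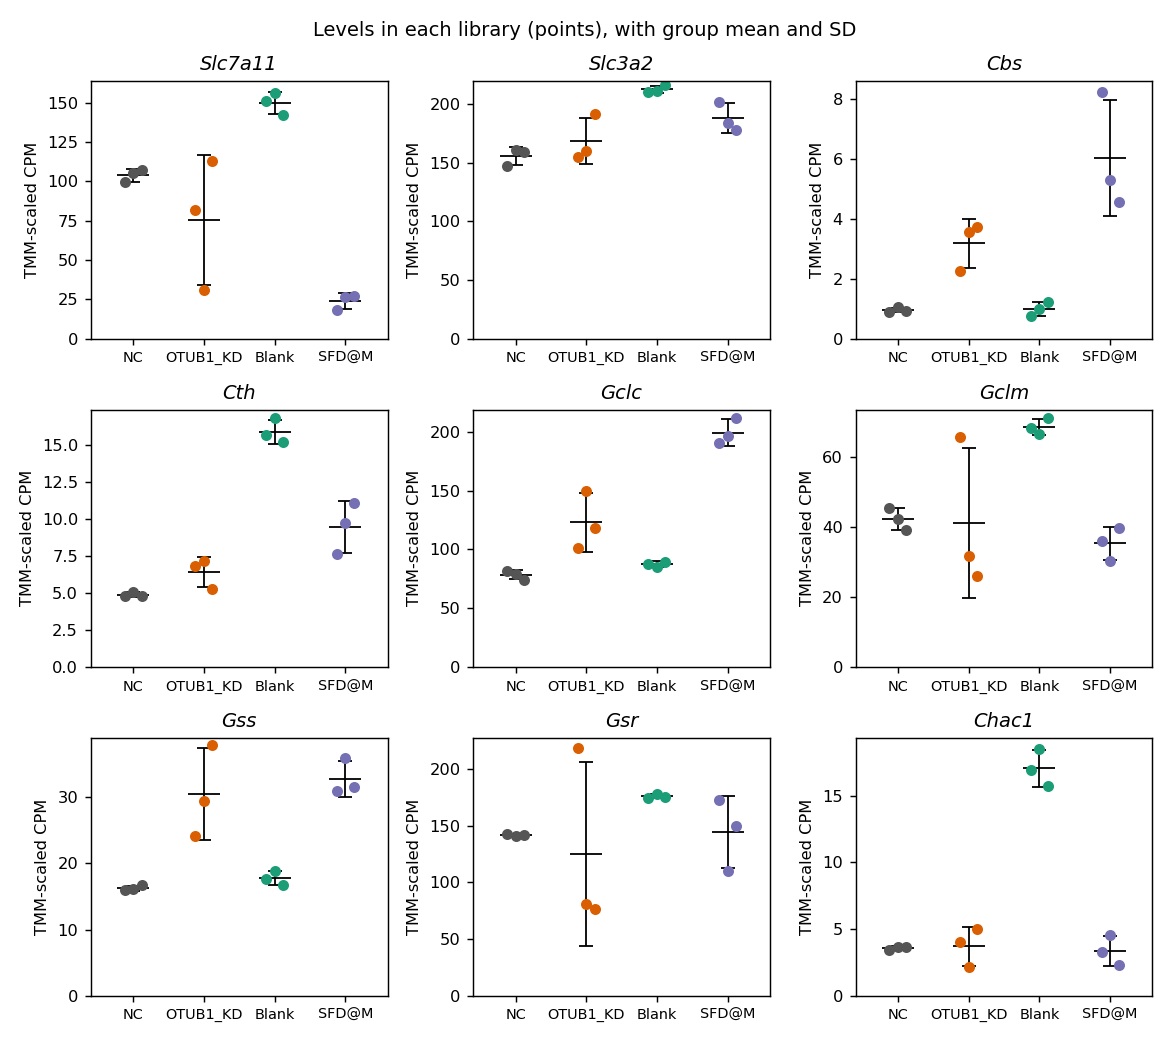
TMM-scaled CPM of the 9 genes in each of the 12 libraries (vertical axes start at 0). Points are libraries, horizontal bars group means and whiskers the SD of 3 libraries; Slc7a11 in SFD@M sits between 18.1 and 26.9, below every other library, and Gsr in OTUB1_KD spreads from 76.3 to 219.

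Cbs, which makes cystathionine from homocysteine and serine, was the member with the largest rise in both experiments. It was scarce in the control groups: 0.907, 1.05 and 0.926 CPM in NC and 0.754, 0.993 and 1.23 in Blank, which are 13 to 21 counts per library. OTUB1_KD libraries held 2.25, 3.58 and 3.74 CPM and SFD@M libraries 8.24, 5.3 and 4.57. Neither experiment's groups overlapped. Cbs rose 3.37-fold in OTUB1_KD (1.75 ± 0.34, adjusted p = 0.00373) and 6.02-fold in SFD@M (2.59 ± 0.31, adjusted p = 1.0e-04), and both calls held in all 14 alternatives. The difference between those changes did not pass the test (0.87 ± 0.45, adjusted p = 0.188).

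Cth, the enzyme that releases cysteine from cystathionine, did not follow Cbs. It was at 4.79, 5.11 and 4.82 CPM in NC and 6.81, 7.17 and 5.25 in OTUB1_KD, without overlap, but the change did not pass (0.41 ± 0.25, adjusted p = 0.175). Blank libraries held 15.7, 16.8 and 15.2 CPM and SFD@M libraries 7.61, 9.72 and 11.1. All SFD@M libraries were below Blank and above NC. Cth fell 1.68-fold in SFD@M (-0.75 ± 0.15, adjusted p = 0.00166).

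Gclc, the catalytic subunit that carries out the rate-limiting step of glutathione synthesis, rose in both experiments. NC libraries were at 81.9, 78.9 and 74.4 CPM and OTUB1_KD libraries at 101, 150 and 118. Every OTUB1_KD library exceeded every NC library (0.68 ± 0.19, adjusted p = 0.0162). The call was lost when NC replicate 1, 2 or 3 was left out (adjusted p = 0.0571, 0.0653 and 0.0796), with log2 fold changes of 0.69, 0.66 and 0.62. In the treatment experiment Blank stood at 87.9, 85 and 89.6 and SFD@M at 190, 196 and 212. This 2.27-fold rise (1.18 ± 0.06, adjusted p = 5.6e-07) held in all 14 alternatives. The change was 0.54 ± 0.19 larger in SFD@M than in OTUB1_KD on the log2 scale, which did not pass (adjusted p = 0.0585) except without OTUB1_KD replicate 1 (0.42, adjusted p = 0.046) or replicate 2 (0.70, adjusted p = 0.00239).

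Gclm, the modifier subunit that lowers the ligase's sensitivity to feedback by glutathione, moved the other way in SFD@M. Blank libraries held 68.2, 66.5 and 70.9 CPM and SFD@M libraries 36, 30.4 and 39.7. All SFD@M libraries were below Blank (-0.96 ± 0.10, adjusted p = 3.4e-05). In NC it measured 45.3, 42.1 and 39.2, and in OTUB1_KD 65.5, 31.7 and 26. OTUB1_KD replicate 1 was above every NC library while replicates 2 and 3 were below them, and the group means were almost equal (-0.02 ± 0.34, adjusted p = 0.963). Without OTUB1_KD replicate 1 Gclm was called lower (-0.53, adjusted p = 0.0214). The RefSeq promoter of Gclm (GRCm38.p6, chr3:122245307-122245556, plus strand) held 1 match to TGACNNNGC, the core of the antioxidant response element that NRF2 binds. It read GCACCGTCA, 134 to 126 bases before the start and on the other strand, and 10.2% of all promoters in the table held such a match.

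The ratio of Gclc to Gclm TPM, the balance of the ligase's subunits, was highest in SFD@M. It was 1.08, 1.11 and 1.12 in NC, 0.934, 2.96 and 2.85 in OTUB1_KD, 0.76, 0.779 and 0.749 in Blank, and 3.27, 3.93 and 3.23 in SFD@M. In SFD@M the ratio of means over Blank was 4.56, with no overlap (two-sided exact permutation p = 0.1, the smallest possible). OTUB1_KD replicate 1 lay under all NC libraries and replicates 2 and 3 lay well above them (ratio of means 2.04, exact permutation p = 0.4). This comparison, too, was added after the levels had been seen.

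Gss, which completes glutathione, rose by a similar amount in both experiments. NC libraries were at 16, 16.1 and 16.7 CPM and OTUB1_KD libraries at 24.1, 29.4 and 37.9. Blank libraries were at 17.7, 18.9 and 16.8 and SFD@M libraries at 30.9, 35.9 and 31.6. Neither pair of groups overlapped. The log2 fold changes were 0.93 ± 0.20 (adjusted p = 0.00569) in OTUB1_KD and 0.87 ± 0.09 (adjusted p = 3.5e-05) in SFD@M, both held in all 14 alternatives, and their difference was -0.03 ± 0.21 (adjusted p = 0.978).

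Gsr, the NADPH-dependent reductase of oxidised glutathione, showed the widest spread within a group. NC libraries lay at 143, 141 and 142 CPM, whereas OTUB1_KD libraries lay at 219, 80.7 and 76.3. OTUB1_KD replicate 1 was above NC and the other replicates were below it (-0.16 ± 0.41, adjusted p = 0.738). Without OTUB1_KD replicate 1 Gsr was called lower (-0.84, adjusted p = 7.8e-04), and 5 members passed in place of 3, with 11141 of 14988 genes called in place of 9721 of 14785. Blank was at 175, 178 and 176 and SFD@M at 173, 110 and 150, all below Blank but by a margin that did not pass (-0.30 ± 0.15, adjusted p = 0.0949). It passed without SFD@M replicate 1 (-0.44, adjusted p = 0.0183), in the fit with the replicate number as a block (-0.32, adjusted p = 0.0457) and with limma on log2(TPM + 1) (-0.58, adjusted p = 0.00427).

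Chac1, the gamma-glutamylcyclotransferase that degrades reduced glutathione and a known target of ATF4 in the stress response, was high in Blank alone. Its levels were 3.43, 3.63 and 3.64 CPM in NC, 4.05, 2.12 and 4.97 in OTUB1_KD, 16.9, 18.5 and 15.7 in Blank and 3.26, 4.54 and 2.31 in SFD@M. The OTUB1_KD and SFD@M libraries both spanned the NC range, and only the Blank libraries stood clear of all others. Chac1 fell 5.07-fold in SFD@M against Blank (-2.34 ± 0.22, adjusted p = 2.3e-05). In OTUB1_KD against NC the log2 fold change was 0.07 ± 0.35 (adjusted p = 0.864), and its sign turned with the setting, to -0.13 with limma on log2(TPM + 1). The Chac1 promoter is shown because this gene lay nearest to Atf4 in its pattern over the libraries (as given further on). The 250 bases are from RefSeq on build GRCm38.p6, chr2:119350992-119351241, plus strand, with matches in capitals.
Chac1: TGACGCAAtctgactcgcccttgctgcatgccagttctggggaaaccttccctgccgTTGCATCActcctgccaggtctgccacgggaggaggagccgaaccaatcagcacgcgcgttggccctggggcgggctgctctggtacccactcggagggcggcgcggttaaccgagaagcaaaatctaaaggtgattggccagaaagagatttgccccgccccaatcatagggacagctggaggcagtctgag
TTGCATCA, at 193 to 186 bases before the start, is the CARE pattern on the other strand. TGACGCAA, at 250 to 243 bases, is an ATF/CRE pattern searched on both strands after this sequence had been read, and 0.438% of the promoters held it. The matches do not overlap. Searched for the same patterns, the Slc3a2, Gss and Cbs windows held none.

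In OTUB1_KD against NC 3 of the 9 genes passed, all higher (Gclc, Gss and Cbs). Of all 14785 genes tested 65.7% passed in either direction and 39.9% passed as higher. Gclc, Gss, Cbs and Cth, 4 of the 9, had groups that did not overlap, as did 79.3% of all genes. The median log2 fold change was 0.13 over the 9 genes and 0.16 over all genes. In SFD@M against Blank 8 of the 9 passed, 3 higher (Gclc, Gss and Cbs) and 5 lower (Slc7a11, Slc3a2, Cth, Gclm and Chac1), where 88.1% of 14824 genes passed, 49.5% higher and 38.7% lower. For 9 of 9 the groups did not overlap, as for 90.2% of all genes. There the median was -0.30 over the 9 genes and 0.23 over all genes. On log2(TPM + 1) the median of all genes moved to -0.03 in OTUB1_KD against NC and to -0.09 in SFD@M against Blank, and the members called kept their directions. Over the 14 alternatives the rises of Gclc, Gss and Cbs in SFD@M were 0.57 or more, the smallest being that of Gss, and the values of Slc7a11, Chac1, Cth and Gclm were -0.60 or lower.

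**Figure D2:**
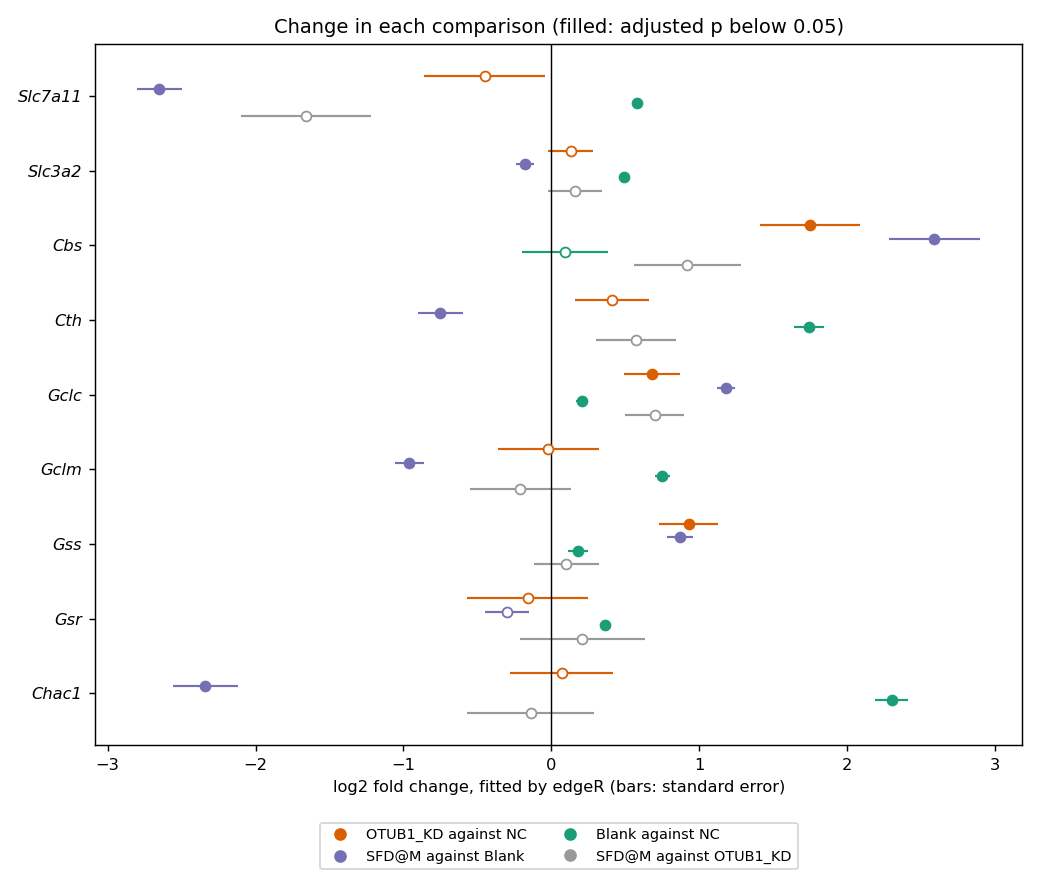
Log2 fold change of each gene in 4 comparisons, with the standard error as horizontal bars; filled points passed at adjusted p below 0.05 and open points did not. Slc7a11 lies at -2.65 and Chac1 at -2.34 for SFD@M against Blank, Cbs lies on the right for both experiments, and all points for SFD@M against OTUB1_KD are open.

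Whether the changes of these genes differed between the experiments was tested over all 12 libraries. The measure was the difference of the changes, SFD@M minus Blank less OTUB1_KD minus NC. Slc7a11 (-2.19 ± 0.49, adjusted p = 0.0112), Chac1 (-2.39 ± 0.43, adjusted p = 0.0047) and Cth (-1.13 ± 0.25, adjusted p = 0.0113) passed, each lower in the treatment experiment, and each held in all 16 alternatives. Of the 15304 genes tested 23.1% passed in either direction, and 10.8% of all tested genes passed as lower. Slc3a2, Gclc, Gclm, Gss, Gsr and Cbs did not pass. For Gclm the value was -0.91 ± 0.38 (adjusted p = 0.109), and without OTUB1_KD replicate 3 it passed (-1.15, adjusted p = 0.0287). The median was -0.29 over the 9 genes and 0.07 over all genes. In the same test 9 of 10 division markers (median -3.27) and 4 of 4 Y-linked genes (median -7.17) passed as lower, and 0 as higher. Of 12 alveolar, 10 endothelial and 16 leukocyte markers 3, 2 and 1 passed as higher and 0 as lower. Of 8 fibroblast markers 1 passed as lower, and of 8 airway markers 0 passed. The part of this marker content in the members' values was not tested.

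The control groups themselves were not alike. Blank exceeded NC in 8 of the 9 genes, where 74.3% of 12087 genes passed in either direction and 37% passed as higher. The same 8 did not overlap between the groups, as did 74.9% of all genes. Chac1 was 4.93-fold higher (2.30 ± 0.11, adjusted p = 7.1e-32), Cth 3.35-fold (1.74 ± 0.10, adjusted p = 1.9e-26), Gclm 1.68-fold and Slc7a11 1.49-fold. Slc3a2 (1.41-fold), Gsr (1.29-fold), Gclc (1.16-fold) and Gss (1.13-fold) followed, and Cbs did not pass (0.09 ± 0.29, adjusted p = 0.778). The median was 0.49 over the 9 genes and -0.00 over all genes. Gss was lost without NC replicate 1 or 2 or Blank replicate 2 (adjusted p = 0.0562, 0.058 and 0.116), and with DESeq2 (0.18, adjusted p = 0.1). Libraries within NC and within Blank differed very little, which makes small differences pass. In a fit over all 12 libraries, where the spread is shared with the other groups, Slc3a2, Chac1 and Cth were the 3 that passed. NC and Blank come from different experiments, so the lentivirus, the saline and any other difference between the experiments cannot be told apart.

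Blank is also the group against which SFD@M was compared, so these values share samples. For Chac1 the SFD@M mean was 3.37 ± 1.12 CPM (SD, n = 3) and the NC mean 3.57 ± 0.119. For Cth SFD@M (9.48 ± 1.76) lay between NC (4.91 ± 0.177) and Blank (15.9 ± 0.801), and for Gclm SFD@M (35.4 ± 4.67) lay near NC (42.2 ± 3.03). For Slc7a11, in contrast, SFD@M (23.9 ± 5.02) was under all libraries of NC (104 ± 3.93) as well as of Blank (150 ± 7.39). Gclc, Gss and Cbs in SFD@M were above all libraries of both control groups. Between SFD@M and Blank 90.2% of all genes did not overlap. That share was not counted for SFD@M against NC or against both control groups together, so the lack of overlap with NC has no background here. NC belongs to the other experiment, so its difference from SFD@M cannot be told apart from a difference between the experiments.

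SFD@M and OTUB1_KD, both rich in lung markers, were compared directly. They come from different experiments, so the treatment, the knockdown and any other difference between the experiments cannot be told apart. None of the 9 genes passed in the edgeR fit of these 6 libraries, where 0.0134% of 14914 genes did. At an unadjusted p below 0.05 3 of the 9 passed (Slc7a11, Gclc and Cbs) and 2966 of all genes. Slc7a11 was lower in every SFD@M library (-1.66 ± 0.44, adjusted p = 0.117), and Gclc (0.70 ± 0.20, adjusted p = 0.131), Cth (0.57 ± 0.27, adjusted p = 0.288) and Cbs (0.92 ± 0.36, adjusted p = 0.221) were higher in every one. These 4 of 9 genes did not overlap between the groups, as did 28.2% of all genes. With DESeq2 Slc7a11 (-1.65, adjusted p = 0.00431) and Gclc (0.70, adjusted p = 0.0226) passed, and without OTUB1_KD replicate 2 the same genes did in edgeR (-2.03, adjusted p = 0.0103, and 0.86, adjusted p = 0.0325). The edgeR fit of all 12 libraries called 3 members, Slc7a11 (adjusted p = 0.0124), Gclc (0.00795) and Cth (0.0495), among 2863 of 15304 genes.

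The OTUB1_KD libraries differed among themselves both in marker content and in these genes. Replicate 1, with the most Y-linked and cell division transcripts, had the highest Gclm and Gsr and the lowest Gclc, Gss and Cbs of its group. In replicate 2, with the fewest of both by summed level, Slc7a11 and Chac1 were lowest and Gclc and Cth highest. Replicate 3 held the highest Slc7a11, Slc3a2, Gss, Cbs and Chac1, and its summed division markers lay between the others. Mki67 alone was lowest in replicate 3, at 208, 72.1 and 47.7 CPM of library totals in replicates 1, 2 and 3. With 3 libraries no relation was tested.

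By TPM the order of the genes was much the same from group to group, with Slc3a2 first throughout at mean TPM of 101 in NC, 115 in OTUB1_KD, 146 in Blank and 119 in SFD@M. Gsr came next except in SFD@M, where Gclc (mean TPM 89.3) passed it (78.4). Slc7a11 was at rank 5 in NC and Blank (18.1 and 27.8), rank 6 in OTUB1_KD (12.2) and rank 7 in SFD@M (3.69). Cbs was last in 3 groups, at 0.65, 1.95 and 0.72, and lay just above Chac1 in SFD@M, at 3.58 against 3.45. Across groups the highest mean CPM exceeded the lowest by 6.28-fold for Cbs, 6.27-fold for Slc7a11, 5.06-fold for Chac1 and 3.24-fold for Cth. The factor was 2.54 for Gclc, 2.02 for Gss, 1.94 for Gclm, 1.41 for Gsr and 1.36 for Slc3a2.

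Known regulators of these genes were measured alongside. Atf4 was at 252 ± 8.15 CPM in NC, 214 ± 55.5 in OTUB1_KD, 608 ± 14.4 in Blank and 150 ± 4.49 in SFD@M. It was higher in Blank than in NC (1.32 ± 0.03, adjusted p = 1.7e-57) and lower in SFD@M than in Blank (-2.02 ± 0.06, adjusted p = 3.6e-08), and OTUB1_KD against NC did not pass (-0.21 ± 0.21, adjusted p = 0.393). Trib3, a pseudokinase induced by ATF4, had the same order of groups, at 16.9 ± 0.761, 12.7 ± 7.19, 50.9 ± 2.74 and 5.09 ± 1.45 CPM in NC, OTUB1_KD, Blank and SFD@M. Atf4 and Trib3 were highest in Blank, as were 6 of the 9 members (Slc7a11, Slc3a2, Cth, Gclm, Gsr and Chac1). Among the other regulators named below, Ddit3, Trp53 and Bap1 also had their highest mean in Blank (29.6, 117 and 63.1 CPM). The share of all genes highest in Blank was not counted, and no link between these patterns was tested. Atf4 (-1.78, adjusted p = 8.9e-04) and Trib3 (-2.91, adjusted p = 0.0044) passed the difference of the changes as lower. So did Slc7a11, Chac1 and Cth, and the other 6 members did not pass. Passing was not particular to these genes, since 23.1% of all genes passed in either direction. Of the 14 regulators 4 passed as lower and 4 as higher. Trp53 and Keap1 were lower beside Atf4 and Trib3, and Nfe2l2, Bach1, Maff and Mafk were higher. Ddit3, a stress transcription factor downstream of ATF4, differed less than Atf4 and Trib3, at 29.6 ± 0.835 CPM in Blank against 23.1 ± 2.35 in SFD@M (-0.37 ± 0.09, adjusted p = 0.00543).

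**Figure D3:**
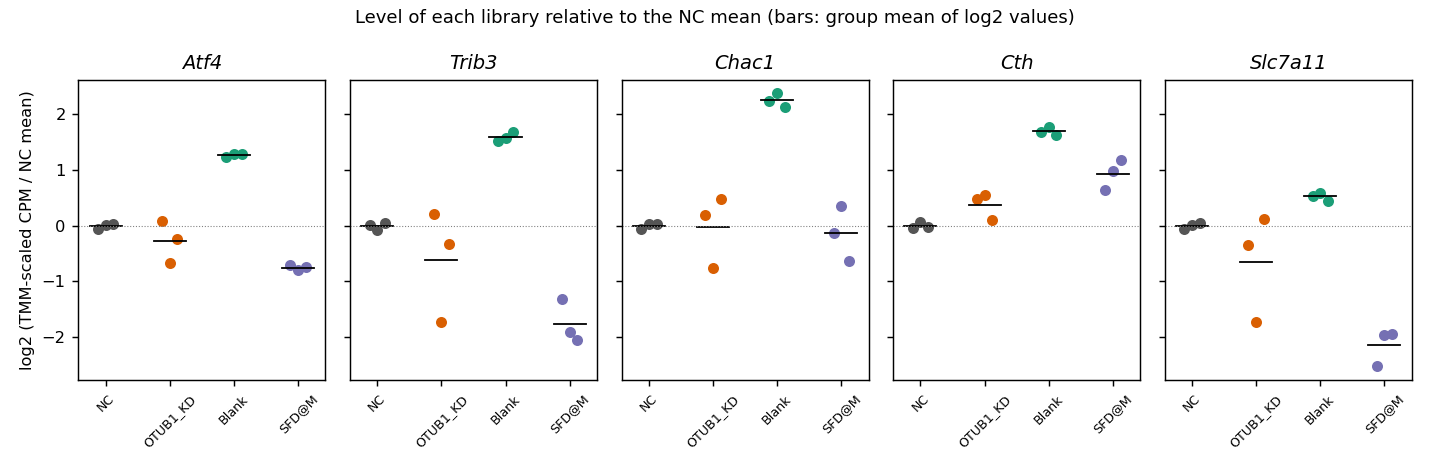
Level of each library relative to the NC mean on a log2 scale, for Atf4, Trib3, Chac1, Cth and Slc7a11; points are libraries and bars are means of the log2 values. All Blank libraries lie above the dotted NC line for the 5 genes, whereas SFD@M libraries lie below it for Atf4, Trib3 and Slc7a11, around it for Chac1 and above it for Cth.

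The NRF2 system, which induces Gclc, Gclm, Gsr and Slc7a11 through antioxidant response elements, was mixed. Nfe2l2, which encodes NRF2, rose in SFD@M (0.45 ± 0.05, adjusted p = 3.6e-05), from 195 ± 2.09 to 268 ± 4.38 CPM. Bach1, a repressor at the same elements, rose more (1.46 ± 0.08, adjusted p = 1.2e-06), from 35.5 ± 1.94 to 98.3 ± 9.12, and so did its partner Mafk (1.93 ± 0.06, adjusted p = 6.2e-08). Maff, another small MAF partner, rose (0.65 ± 0.07, adjusted p = 6.6e-05). Keap1, the adaptor that directs NRF2 to degradation, fell slightly (-0.27 ± 0.05, adjusted p = 0.00164), and Mafg did not pass (-0.02 ± 0.05, adjusted p = 0.749). Blank itself was lower than NC in Mafk (-0.58), Bach1 (-0.51), Maff (-0.36) and Nfe2l2 (-0.16) and higher in Keap1 (0.36) and Mafg (0.32). All of these passed, as did 74.3% of all genes in Blank against NC. In OTUB1_KD Nfe2l2 (-0.23, adjusted p = 0.327), Keap1 (0.44, adjusted p = 0.0771) and Bach1 (0.52, adjusted p = 0.0696) did not pass. Mafg (0.45, adjusted p = 0.0283), Mafk (0.66, adjusted p = 0.0231) and Atf3 (1.53, adjusted p = 4.3e-04) rose there. Among genes whose proteins are known to repress Slc7a11 transcription, Trp53 fell in SFD@M from 117 ± 2.06 to 37.2 ± 1.87 CPM (-1.66 ± 0.05, adjusted p = 7.7e-08), Atf3 rose from 6.9 ± 0.86 to 12.9 ± 1.59 (0.89 ± 0.15, adjusted p = 6.2e-04) and Bap1 fell slightly (-0.28 ± 0.06, adjusted p = 0.00258). Cd44, whose product holds SLC7A11 at the membrane, was at 303 ± 6.24 in Blank and 219 ± 14.2 in SFD@M (-0.47 ± 0.06, adjusted p = 1.6e-04). Of the 14 regulators, Otub1 included, 3 rose and 0 fell in OTUB1_KD, where 65.7% of all genes passed, and 5 rose and 8 fell in SFD@M, where 88.1% did.

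Likeness to other genes was measured as the root mean square difference between log2(CPM + 1) profiles over the 12 libraries, each centred on its own mean, among 11959 genes with a range of at least 1. A small value can come from any gene that separates the same groups of libraries. Nearest to Chac1 were Atf4 (0.359), the alanyl-tRNA synthetase gene Aars (0.418) and Cd209c (0.419). Atf4 was farther from Gclm (0.445, rank 1690), Slc7a11 (0.593, rank 921), Cth (0.633, rank 1025) and Gsr (0.66, rank 3702). It was farthest from Gss (1.12), Gclc (1.2) and Cbs (1.46). Nearest to Slc7a11 were the tubulin genes Tuba1b (0.178) and Tubb6 (0.187) and then Phf19 (0.228), and Chac1 was at 0.813 from it. Zfp809 (0.101), Erbb3 (0.104) and Phldb2 (0.112) lay nearest to Gclc, while Gclm lay nearest to Srsf2 (0.147), Eif3j1 (0.147) and Mitd1 (0.163). Gclm was at 0.882 from Gclc, its partner subunit, and at 0.269 from Gsr. Slc3a2 had a range under 1 and was not compared.

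Some of the 9 genes had several RefSeq transcripts in the table, between which the authors' expected counts split reads by estimation, so the shares were not tested. Slc3a2 had 4. The more abundant of its 2 predicted transcripts held 0%, 2.94% and 2.02% of the gene's counts in NC and 0.523%, 0.849% and 1.57% in Blank, against 9.38%, 21.1% and 17.9% in OTUB1_KD and 15%, 9.47% and 8.99% in SFD@M. For Gclc, with 2 transcripts, the predicted transcript held 44.9% ± 7.81 (SD, n = 3) in NC, 71% ± 13 in OTUB1_KD, 53% ± 12.1 in Blank and 67.2% ± 5.91 in SFD@M, and Blank and SFD@M overlapped. A single predicted transcript of Slc7a11 held 85.1% to 98.3% in every library. Gsr and Chac1 had 1 transcript each, and for Cbs the split moved between 0% and 100% among libraries with few counts.

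**Figure D4:**
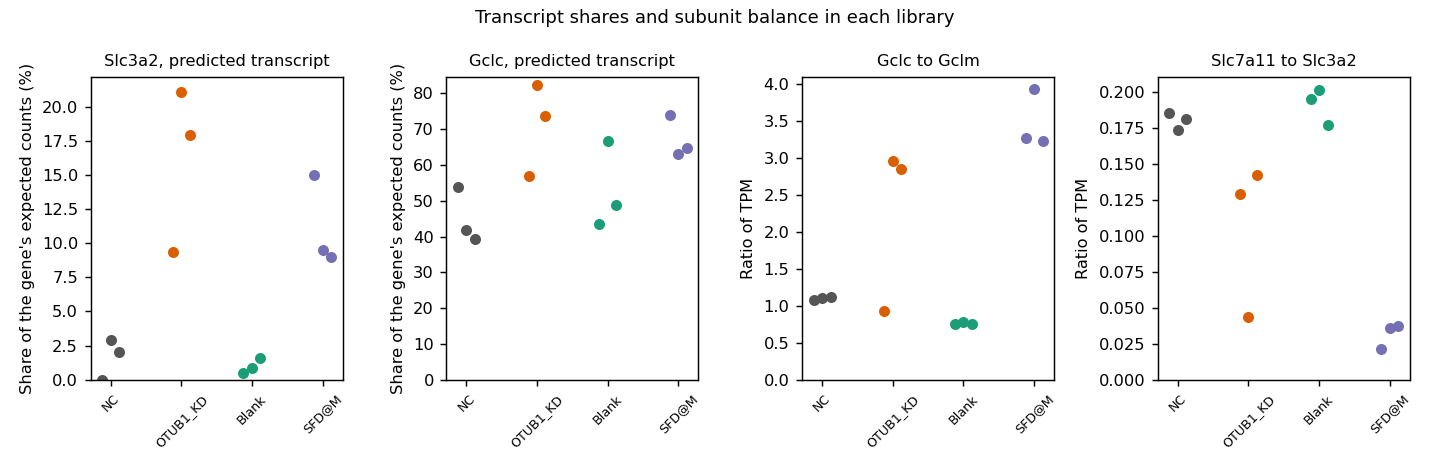
Left, share of the Slc3a2 and Gclc expected counts held by a predicted transcript, in percent; right, ratio of TPM of Gclc to Gclm and of Slc7a11 to Slc3a2. Points are libraries and axes start at 0; the Slc3a2 share is at most 2.94% in NC and Blank and at least 8.99% elsewhere, and Gclc to Gclm reaches 3.23 to 3.93 in SFD@M.

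Other transporters of cystine, cysteine, glutamate, glycine and glutamine, with other partners of Slc3a2, changed in both directions. In SFD@M 7 of 14 tested rose and 6 fell (median 0.50), near the shares of all genes there (49.5% higher, 38.7% lower, median 0.23). In OTUB1_KD 8 of 14 rose and 2 fell (median 0.94), where 39.9% of all genes rose and 25.8% fell (median 0.16). Slc7a5, the leucine transporter that also pairs with the SLC3A2 protein, fell in SFD@M from 325 ± 2.8 to 9.98 ± 2.75 CPM (-5.03 ± 0.18, adjusted p = 1.4e-07), and Slc38a2, a glutamine carrier, from 633 ± 8.1 to 205 ± 9.1. Slc1a3, a glutamate transporter, rose from 0.622 ± 0.0685 to 25.2 ± 2.38 CPM (5.32 ± 0.15, adjusted p = 4.4e-08). Slc1a1, a glutamate and cysteine transporter, had 3 counts over the Blank libraries and 1520 over SFD@M, a 513-fold ratio with a 95% counting interval of 175 to 2489. It had 0 counts in NC and 907 in OTUB1_KD, at least 285-fold higher when the floor is set at 3 counts over the group. Slc1a5, which carries glutamine, rose in OTUB1_KD from 76.4 ± 2.66 to 199 ± 27.4 CPM, and Slc38a2 (-0.88 ± 0.26, adjusted p = 0.0222) and Slc7a6 (-0.85 ± 0.24, adjusted p = 0.0181) fell there. Counting intervals and floors cover counting error only.

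The methionine cycle, which supplies homocysteine to Cbs, had 5 of 11 tested genes higher and 6 lower in SFD@M (median -0.32), against 49.5% higher and 38.7% lower over all genes. In OTUB1_KD 3 of 11 rose and 4 fell (median 0.12), against 39.9% and 25.8%. Ahcyl1, a relative of the S-adenosylhomocysteine hydrolase, fell from 757 ± 6.14 to 138 ± 3.53 CPM in SFD@M and from 1027 ± 5.57 to 170 ± 57.5 in OTUB1_KD. Ahcy, the hydrolase that releases homocysteine, fell in SFD@M (-2.53 ± 0.07, adjusted p = 3.4e-08), and Mat2a, which makes S-adenosylmethionine, fell in OTUB1_KD (-1.41 ± 0.26, adjusted p = 0.00314). The synthetase gene Mat1a rose in SFD@M from 0.194 ± 0.121 to 15.3 ± 1.23 CPM, and Gnmt, a methyltransferase that consumes S-adenosylmethionine, rose in OTUB1_KD from 0.146 ± 0.0938 to 4.44 ± 2.04.

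Of 10 genes that oxidise cysteine or handle sulfide, 5 rose and 5 fell in SFD@M (median 0.27), where 88.1% of all genes passed in either direction. In OTUB1_KD 4 rose and 1 fell (median 0.02), where 65.7% of all genes passed. Sqor, which oxidises sulfide in mitochondria, rose from 1.67 ± 0.132 to 58.3 ± 1.13 CPM in SFD@M and from 3.18 ± 0.39 to 52.3 ± 15.1 in OTUB1_KD. Cdo1, the dioxygenase that commits cysteine to taurine and sulfate, rose from 0.48 ± 0.0665 to 126 ± 69.3 in OTUB1_KD, and the sulfurtransferase gene Tst from 2.49 ± 0.357 to 57.7 ± 9.96 in SFD@M. The aspartate aminotransferase gene Got2 fell in both (-1.78 ± 0.08 in SFD@M and -1.31 ± 0.22 in OTUB1_KD), and Got1 fell in SFD@M (-1.50 ± 0.13). These rises went with alveolar, airway, endothelial and leukocyte markers, all of which (12, 8, 10 and 16 genes) passed as higher in both experiments, and the part of those cells was not tested.

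Of 15 glutathione turnover and export genes 7 rose and 6 fell in SFD@M (median 0.23), and 5 rose and 5 fell in OTUB1_KD (median -0.16). These counts were near the background, since 88.1% and 65.7% of all genes passed in those comparisons. Dpep1, a dipeptidase that splits cysteinylglycine, went from 0.156 ± 0.122 to 184 ± 16.2 CPM in SFD@M and from 0.397 ± 0.0311 to 89.6 ± 39.6 in OTUB1_KD. Dpep2 had 0 counts in NC and 954 in OTUB1_KD, at least 300-fold higher against the same floor. Oplah, the 5-oxoprolinase of the gamma-glutamyl cycle, rose in SFD@M (3.17 ± 0.12, adjusted p = 1.7e-07). Abcc1, an exporter of glutathione and its conjugates, fell in both, from 127 ± 3.68 to 37.2 ± 2.55 CPM in SFD@M and from 202 ± 4 to 76.6 ± 34.7 in OTUB1_KD. The mitochondrial glutathione carriers fell as well, Slc25a39 in SFD@M (-1.51 ± 0.06) and Slc25a40 in OTUB1_KD (-1.51 ± 0.25).

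Glutathione transferases, which use glutathione to conjugate other molecules, rose in 16 of 22 tested and fell in 4 in SFD@M (median 1.76), where 49.5% of all genes rose and 38.7% fell (median 0.23). In OTUB1_KD 11 of 22 rose and 3 fell (median 0.54), where 39.9% of all genes rose and 25.8% fell (median 0.16). Near-identical copies in this family share reads, so single members are uncertain. Mgst1, a membrane transferase and peroxidase, rose from 13 ± 0.714 to 344 ± 27.3 CPM in SFD@M, and Gstt1 from 12.6 ± 0.396 to 71.9 ± 8.22, while Mgst2 (-1.35 ± 0.16) and Mgst3 (-0.78 ± 0.10) fell. Gsta3 rose in OTUB1_KD from 0.146 ± 0.0338 to 87.4 ± 33.6, Hpgds went from 3 counts to 391 (a ratio of 123, 95% counting interval 41.7 to 598), and Gstm5 (-0.75 ± 0.18) and Gstm7 (-1.42 ± 0.36) fell. Genes that supply NADPH for Gsr, with the glutaredoxins, fell in 10 of 14 and rose in 2 in SFD@M (median -0.55), beside 38.7% lower and 49.5% higher over all genes. In OTUB1_KD 5 of 14 fell and 1 rose (median -0.24), beside 25.8% and 39.9%. Nnt, the mitochondrial transhydrogenase, fell from 147 ± 2.89 to 23.8 ± 2.07 CPM in SFD@M and from 137 ± 2.29 to 35.7 ± 12.4 in OTUB1_KD. Idh1, the cytosolic isocitrate dehydrogenase, fell from 549 ± 3.62 to 118 ± 11.2 and from 642 ± 24.4 to 132 ± 46.2. The genes that rose were Idh2 (0.28 ± 0.06) and Taldo1 (0.35 ± 0.08) in SFD@M and Pgd (1.04 ± 0.25) in OTUB1_KD.

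**Figure D5:**
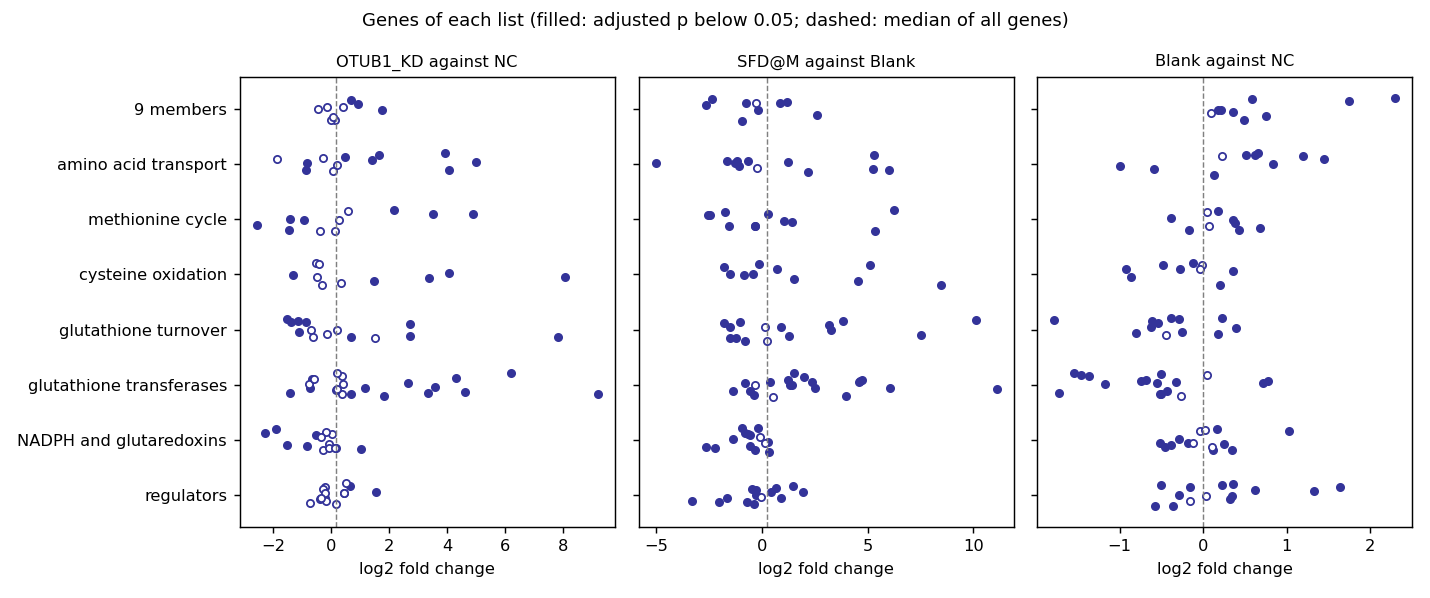
Log2 fold change of every tested gene of the 9 and of the related lists in 3 comparisons (horizontal axes differ in scale; filled points passed at adjusted p below 0.05). Genes with 3 counts or fewer in a group, 4 in each of the first and second panels, are not drawn; the dashed line is the median of all genes, and transferases lie mostly to its right in SFD@M against Blank and to its left in Blank against NC.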

How the data were processed

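Per the labels' protocols, libraries were made from oligo(dT)-selected messenger RNA and read on DNA nanoballs. GRCm39 is the build in the submitters' processing notes, which list the tools RSEM 1.3.1, Bowtie2 and DESeq2 1.4.5 but not their roles. The authors deposited 1 table of 70659 transcripts with, for each library, an expected count that need not be whole and a TPM per transcript, per the file headers; 24 further per-library columns and 16 average columns were not used. How strand was handled is not stated, so overlapping and antisense genes cannot be told apart. Groups were taken from titles and treatment labels; Blank titles carry codes that begin with KD.

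Expected counts were summed per Entrez gene and rounded. Symbols for 19155 of 19212 genes came from RefSeq on GRCm38.p6; the 57 unnamed held at most 0.342% of a library. Each comparison was fitted alone with edgeR 4.0.16 in R 4.3.3 (filterByExpr, TMM, robust quasi-likelihood), and the difference of the changes over 12 libraries, with adjusted p below 0.05 as a call. Levels use TMM factors over all 12 libraries, so a ratio of means can differ slightly from a fitted fold change. Alternatives were DESeq2 size factors, total counts, no filter, DESeq2 1.42.0, limma 3.58.1 on log2(TPM + 1) or + 0.1 with a mean TPM of at least 0.5, 1 fit of all libraries, a replicate block and leaving out each library. The edgeR script was tested on simulated counts. Named genes were the 9 members, all 14 regulators, the 2 genes with the smallest p per direction of each other list in each experiment, the 3 nearest genes of Slc7a11, Chac1, Gclc and Gclm, and the first marker of each cell type. A gene that this rule names is not reported here. The members and lists were chosen with earlier results of these data known.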

Additional observations from a re-analysis of the deposited data

Results flagged for a closer look

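Of the 9 genes, 3 differed between the experiments by the test of the difference of the changes over all 12 libraries, which 23.1% of 15304 genes passed. On the log2 scale the change in SFD@M against Blank was below that in OTUB1_KD against NC by -2.19 for Slc7a11, -2.39 for Chac1 and -1.13 for Cth. Each was lower in all 3 SFD@M libraries than in every Blank library, where 90.2% of all genes did not overlap between the groups. For Slc7a11 and Chac1 the OTUB1_KD libraries overlapped those of NC, and for Cth they were higher in 3 of 3 libraries without passing (adjusted p = 0.175). Between OTUB1_KD and NC 79.3% of all genes did not overlap. Chac1 and Cth were also the genes that were highest in Blank relative to NC, at 4.93-fold and 3.35-fold. By the difference of the changes 9 of 10 division markers and 4 of 4 Y-linked genes passed as lower too, and their part was not tested.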

How the results depend on the processing

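The members called stayed at 3 in OTUB1_KD against NC under every alternative but single libraries left out (2 to 5, the 5 without OTUB1_KD replicate 1), and lay between 7 and 9 (3 higher, 4 to 6 lower) in SFD@M against Blank. In Blank against NC the fit of all 12 libraries called 2699 genes and 3 members in place of 8977 and 8, with 28.2% of calls higher against 49.9%. In SFD@M against OTUB1_KD, with 2 genes and 0 members called, the replicate block gave 7 genes, no filter 15, limma on log2(TPM + 1) 10 and on log2(TPM + 0.1) 7, DESeq2 1372 genes and 2 members, all 12 libraries in 1 fit 2863 and 3, and single libraries left out 0 to 1875 genes and 0 to 2 members (the 1875 and the 2 without OTUB1_KD replicate 2). For the difference of the changes, 3537 genes were called and 2090 to 5523 with a library left out, and the higher share moved from 53.5% to 39% on log2(TPM + 1). Where single libraries leave 2 in a group, the spread is pooled with the other group.

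Signs turned only in changes that had not passed. For Chac1 in OTUB1_KD against NC the value was -0.13 on log2(TPM + 1), -0.18 on log2(TPM + 0.1) and -0.19 to 0.34 with a library left out. For Gclm it was 0.05 with total counts and -0.53 to 0.22 with a library left out, and for Gsr -0.84 to 0.09. With a library left out Cbs spanned -0.08 to 0.26 in Blank against NC. In SFD@M against OTUB1_KD Gclm spanned -0.47 to 0.29, Gss -0.04 to 0.29, Gsr -0.07 to 0.87 and Chac1 -0.42 to 0.12. For the difference of the changes Gsr spanned -0.36 to 0.56 and Gss -0.17 to 0.17. The cause was not tested. Chac1, Cth and Cbs rest on few counts, 13 per library at the lowest (Cbs in Blank).

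Same-numbered libraries did not deviate together (correlations over genes of 0.0451, 0.00384 and 0.0746 in OTUB1_KD against NC and 0.00504, -0.00526 and 0.0121 in SFD@M against Blank), so the numbers were not taken to pair samples. With the replicate block 9362 genes were called in OTUB1_KD against NC (9721 without it) and 13010 in SFD@M against Blank (13062), and the members called were 3 and 9. Among levels, 5 of 27 moved by more than 1 SD with CPM of library totals and 8 of 27 with the deposited TPM.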
